A study of Mus musculus with 13 samples.

Results

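Transcripts of 10 genes of the T cell receptor complex and of the signaling machinery next to it (Cd3d, Cd3e, Cd247, Lck, Zap70, Fyn, Cd2, Cd5, Cd6 and Thy1) were followed in leukocytes of irradiated mouse tumors. They were taken by name from the 547 endogenous genes of an nCounter mouse immunology panel, a hybridization assay that counts barcoded probes bound to RNA without amplification. All 10 were on the panel and all 10 were among the 415 genes whose mean raw count over the samples exceeded background. CT26, a colon carcinoma line of BALB/c origin, had been implanted under the skin of the right flank of 6-week-old female BALB/c mice, and the established tumors were irradiated locally. The groups were PreRT (not irradiated, before radiotherapy) and, at each of 4 phases counted in days from the first dose, early (T2), middle (T7), late (T14) and progression (T21), tumors given 2 Gy × 5, 7.5 Gy × 1 or 0 Gy. RNA came from cells that had been positively selected from the tumor with magnetic particles for CD45, the surface protein shared by leukocytes.

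The 13 samples were 1 per condition, so that no difference between 2 conditions has a replicate check here. Groups held 3 mice, and whether their RNA was pooled is not given in the sources used here. Nor is it given how many of the 5 fractions had been delivered by T2. The column labels of the samples carry 3 set numbers, which were taken here as 3 runs. The labels do not say what these numbers mean. PreRT and the 3 samples of T2 shared one run, the 3 samples of T7 and the 2 Gy × 5 sample of T14 shared another, and the other 2 samples of T14 and all of T21 the last. The 2 Gy × 5 sample of T14 and both samples it is set against at that phase therefore came from different runs, as did PreRT and every sample of T7, T14 and T21. The labels also carry dates. The run of PreRT and T2 has the same date as the run of T21, and the run of T7 an earlier one.

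T cells recognize antigen through a receptor that has no signaling domain of its own and relies on the CD3 chains and the zeta chain to carry the signal inward. The kinase Lck phosphorylates tyrosine motifs in these chains, Zap70 docks on them and passes the signal on, and Fyn, a kinase of the same family as Lck, acts beside it. Cd2 is an adhesion and costimulatory receptor, Cd5 and Cd6 are scavenger-type surface receptors that tune the strength of the signal, and Thy1 is a surface glycoprotein that marks mouse T cells. Several members are not exclusive to T cells, since NK cells also make Cd2, Lck, Fyn and Cd247, Fyn is made by many leukocytes, and Thy1 by fibroblasts and other stromal cells.

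The upstream sequences of 4 members are shown because they belong to the genes on which the account turns, namely the adjacent CD3 genes Cd3d and Cd3e, the kinase Lck, and Fyn, the kinase without a match to the searched motif. Each is a RefSeq window of the C57BL/6J reference (GRCm38.p6), ending at the annotated start of the gene, printed 5′ to 3′ on the gene's own strand. Capitals mark the letters AGGAAG or their reverse complement CTTCCT, the core that ETS-family factors bind, and in Lck also TGTGGT, the core that RUNX factors bind.
Cd3d: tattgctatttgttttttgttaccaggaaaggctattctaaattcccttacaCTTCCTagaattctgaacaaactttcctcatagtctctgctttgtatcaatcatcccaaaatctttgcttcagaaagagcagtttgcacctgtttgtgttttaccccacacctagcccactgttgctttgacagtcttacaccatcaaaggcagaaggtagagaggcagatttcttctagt
Cd3e: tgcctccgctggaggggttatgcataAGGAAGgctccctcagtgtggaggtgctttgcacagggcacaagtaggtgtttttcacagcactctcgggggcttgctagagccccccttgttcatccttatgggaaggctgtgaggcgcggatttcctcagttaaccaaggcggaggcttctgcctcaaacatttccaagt
Lck: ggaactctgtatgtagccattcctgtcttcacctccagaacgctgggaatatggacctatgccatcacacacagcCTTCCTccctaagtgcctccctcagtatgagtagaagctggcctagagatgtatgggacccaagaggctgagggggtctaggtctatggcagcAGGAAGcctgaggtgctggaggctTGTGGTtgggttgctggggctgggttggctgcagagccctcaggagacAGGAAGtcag
Fyn: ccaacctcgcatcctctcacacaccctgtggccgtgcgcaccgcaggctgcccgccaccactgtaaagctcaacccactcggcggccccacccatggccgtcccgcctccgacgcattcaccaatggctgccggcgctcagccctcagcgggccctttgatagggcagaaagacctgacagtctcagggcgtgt
The windows lie at chr9:44981536-44981768 (plus strand), chr9:45009664-45009861 (minus strand), chr4:129573642-129573891 (minus strand) and chr10:39369549-39369742 (plus strand). Cd3d and Cd3e lie next to each other on chromosome 9 and are read from opposite strands. Windows were found for 7 of the 10 members, the 4 shown and those of Cd247, Zap70 and Cd5. In the untrimmed 250-base windows the ETS letters occurred on either strand in 6 of these 7, all but Fyn, against 29.5% of 32851 mouse windows of that length, and the RUNX letters occurred in 1 of 7, Lck, against 14% of all windows. Part of the untrimmed windows of Cd3d, Cd3e, Cd5 and Fyn lies inside the gene and was left out of what is printed, and the window of Cd247 lies wholly within its gene, at another start site. A match of letters is a description of the sequence and was not related to the measurements.

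Total counts ranged from 166307 to 675847 per sample (median 241239), and a transcript was called above background in a sample when its raw count exceeded the mean plus 2 SD of the 8 negative control probes there. That threshold lay between 6.23 and 18.3 counts. Cd3d, Lck, Fyn and Thy1 were above background in all 13 samples, Cd3e, Cd247 and Cd2 in 12, Zap70 in 11, Cd5 in 10 and Cd6 in 8. The 10 members had 191 to 1150 raw counts in total per sample, with the lowest sum in the 0 Gy sample of T21. Ptprc, which encodes CD45 itself, was above background in all 13 samples, at 148 to 1855 counts. Values below are the normalized values, in which the 14 housekeeping probes have the same geometric mean in every sample. Since each value is for 1 probe, levels are compared between samples and not between genes. In RNA of CD45-selected cells, fewer T cells and less RNA per T cell cannot be told apart.

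The 3 chains that carry the signal were lowest at T2 in irradiated tumors or at T21 and highest at T7 after 7.5 Gy × 1. Cd3d, the CD3 delta chain, was 20.1, 58.9, 59.1 and 46.5 over T2, T7, T14 and T21 in the 2 Gy × 5 arm, 17.1, 122, 69.6 and 23.5 in the 7.5 Gy × 1 arm and 21.5, 40.7, 33.2 and 24.3 in the 0 Gy arm, with 60.8 in PreRT. Cd3e, the CD3 epsilon chain, measured 22.2, 60.4, 37.5 and 38.3 over T2, T7, T14 and T21 in the 2 Gy × 5 arm, 18.8, 99.0, 94.2 and 21.9 in the 7.5 Gy × 1 arm and 49.1, 39.4, 44.9 and 14.8 in the 0 Gy arm, with 59.5 in PreRT. Cd247, the zeta chain with the most tyrosine motifs of the complex, stood at 9.72, 34.7, 19.9 and 26.0 over T2, T7, T14 and T21 in the 2 Gy × 5 arm, 11.96, 39.6, 39.1 and 12.5 in the 7.5 Gy × 1 arm and 24.6, 33.1, 33.2 and 13.5 in the 0 Gy arm, with 27.8 in PreRT. Cd3e tracked the group most closely of the members, with r = 0.96 between its log2 values and the mean of the other 9 over the 13 samples, which share runs and scaling. Cd247 was close to background throughout, with 8 to 36 raw counts.

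The kinases Lck and Fyn were highest in the irradiated tumors of T7, and Zap70 after 7.5 Gy × 1 at T14. Lck, which starts the phosphorylation, was measured at 38.9, 181, 103 and 50.6 over T2, T7, T14 and T21 in the 2 Gy × 5 arm, 20.5, 194, 123 and 25.0 in the 7.5 Gy × 1 arm and 62.9, 112, 56.5 and 28.3 in the 0 Gy arm, with 84.6 in PreRT. The 0 Gy arm thus had its maximum at T7 as well. Zap70, which is recruited to phosphorylated CD3 and zeta chains, had 13.9, 25.7, 20.5 and 27.3 over T2, T7, T14 and T21 in the 2 Gy × 5 arm, 17.9, 38.5, 49.3 and 10.95 in the 7.5 Gy × 1 arm and 16.9, 30.5, 33.2 and 13.5 in the 0 Gy arm, with 25.1 in PreRT. Its raw counts were 7 to 36, and 2 of the 3 samples of T21 were not above background. Fyn reached 70.8, 295, 117 and 104 over T2, T7, T14 and T21 in the 2 Gy × 5 arm, 92.3, 251, 167 and 54.8 in the 7.5 Gy × 1 arm and 114, 141, 86.4 and 41.8 in the 0 Gy arm, with 144 in PreRT. Its 2 highest samples were the irradiated tumors of T7.

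Among the surface receptors Cd2 had the widest range of any member. Cd2 was 70.1, 162, 65.4 and 41.0 over T2, T7, T14 and T21 in the 2 Gy × 5 arm, 35.0, 173, 104 and 46.9 in the 7.5 Gy × 1 arm and 115, 97.9, 46.5 and 16.2 in the 0 Gy arm, with 221 in PreRT. The lowest sample was that of 0 Gy at T21, where 12 counts did not exceed background, and it was at least 10.6-fold lower than PreRT, the highest. Thy1 measured 99.3, 231, 143 and 124 over T2, T7, T14 and T21 in the 2 Gy × 5 arm, 215, 296, 299 and 92.3 in the 7.5 Gy × 1 arm and 295, 170.4, 119.7 and 68.8 in the 0 Gy arm, with 302 in PreRT. Its highest values, in the 7.5 Gy × 1 samples of T7 and T14, the 0 Gy sample of T2 and PreRT, lay within 10 units of each other. Cd5 was 13.9, 33.2, 18.8 and 19.1 over T2, T7, T14 and T21 in the 2 Gy × 5 arm, 9.40, 28.6, 52.2 and 14.1 in the 7.5 Gy × 1 arm and 15.3, 26.7, 24.9 and 22.9 in the 0 Gy arm, with 26.5 in PreRT. Cd6 gave 8.33, 27.2, 11.4 and 20.5 over T2, T7, T14 and T21 in the 2 Gy × 5 arm, 6.83, 24.2, 44.9 and 15.6 in the 7.5 Gy × 1 arm and 16.9, 17.8, 6.38 and 13.5 in the 0 Gy arm, with 30.4 in PreRT. Both had few counts, 9 to 36 for Cd5 and 6 to 31 for Cd6. The Cd6 value in 0 Gy at T14 is the floor the authors set, the 1 member value at it. Their highest samples were the 7.5 Gy × 1 tumors of T14.

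**Figure D1:**
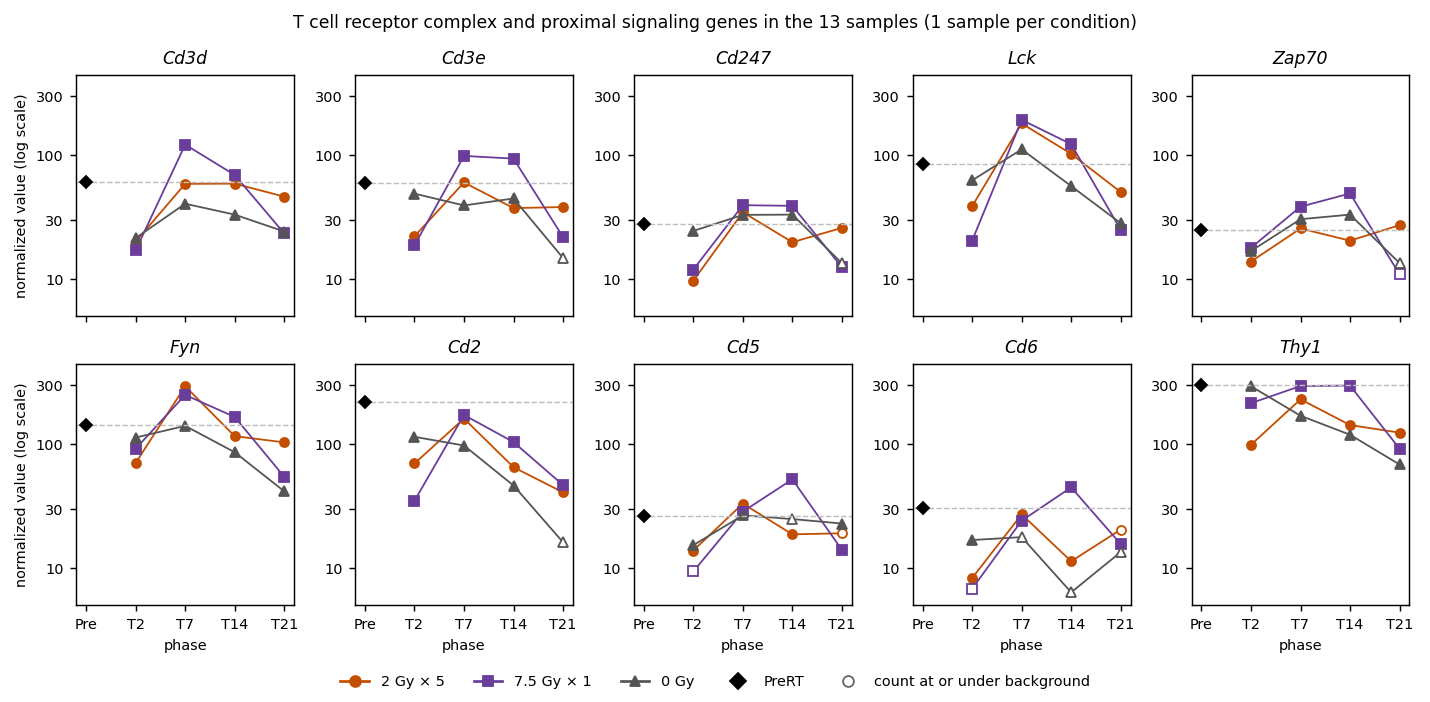
Normalized values (log axis) of the 10 members in each sample, with PreRT at the left and the 3 arms followed from T2 to T21; hollow symbols are counts at or under background and the dashed line repeats the PreRT value. In all 10 panels both irradiated samples of T2 lie below the PreRT line, and Cd2 is lowest at 16.2 in the 0 Gy sample of T21 and highest at 221 in PreRT.

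By the geometric mean of the 10 members, the order of the samples ran from the 7.5 Gy × 1 tumors of T7 and T14 (89.2 and 84.7), through the 2 Gy × 5 tumor of T7 (75.1), PreRT (66.3) and the 0 Gy tumor of T7 (53.8). The samples at 44.03 (0 Gy, T2), 43.0 (2 Gy × 5, T14), 40.9 (2 Gy × 5, T21) and 38.5 (0 Gy, T14) followed. The 4 lowest were the 2 Gy × 5 tumor of T2 (25.9), the 7.5 Gy × 1 tumors of T21 (24.9) and T2 (24.0), and the 0 Gy tumor of T21 (22.0). With 1 sample each, the spread behind this order is not known.

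At T2 the members were lower in irradiated than in unirradiated tumors. All 10 lay below the 0 Gy sample after 2 Gy × 5, with a median log2 fold of -0.70 against -0.01 over the 415 genes, and 9 of 10 after 7.5 Gy × 1, with a median of -0.87 against -0.01. In normalized values, 2-fold lower or more were 4 members after 2 Gy × 5 (Thy1, Cd247, Cd3e and Cd6), where 5.54% of all genes were, and 5 after 7.5 Gy × 1 (Cd2, Lck, Cd3e, Cd247 and Cd6), where 17.1% of all genes were. Cd6 was at background after 7.5 Gy × 1 and thus at least 1.66-fold lower, so that with such counts set to the background threshold 4 members and 14.9% of all genes were 2-fold lower. The direction of both medians held under the 3 other scalings tried, although that for 7.5 Gy × 1 shrank to -0.29 when the samples were scaled to 5 genes made by leukocytes in general (Ptprc, Cd48, Cd53, Itgb2 and Arhgdib). With that scaling 3 members (5.06% of all genes) were 2-fold lower after 2 Gy × 5 and 2 (5.3%) after 7.5 Gy × 1. Myeloid transcripts differed between the same samples. At T2 the 4 detected neutrophil genes summed to 8067 in 2 Gy × 5, 689 in 7.5 Gy × 1 and 1781 in 0 Gy, and the 9 detected monocyte and macrophage genes to 3463 in 2 Gy × 5, 1608 in 7.5 Gy × 1 and 2984 in 0 Gy. Their part in the members' values was not tested.

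After 7.5 Gy × 1 at T2, Cd2, Lck and Cd3e were furthest below 0 Gy. Cd2 had 41 raw counts after 7.5 Gy × 1, against 75 in 0 Gy, a log2 fold of -1.72 in normalized values with a 95% counting interval of -2.30 to -1.15. Lck had 24 counts after 7.5 Gy × 1 and 41 in 0 Gy (-1.62, -2.41 to -0.86). Cd3e had 22 counts after 7.5 Gy × 1 and 32 in 0 Gy (-1.39, -2.24 to -0.56), and after 2 Gy × 5 its fold was -1.14 (-1.90 to -0.39). These intervals exclude equality, but they cover counting error and not the difference between animals. Zap70 was 0.09 after 7.5 Gy × 1 and -0.28 after 2 Gy × 5, with intervals of -1.03 to 1.29 and -1.41 to 0.93 that span 0 for both. NK markers, 4 of 10 named genes being detected, summed to 148 in 2 Gy × 5, 81 in 7.5 Gy × 1 and 129 in 0 Gy, with Klra7 at background in 7.5 Gy × 1 and 0 Gy, and their part was not tested.

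Thy1 was lowest after the fractionated regimen instead. It had 99.3 after 2 Gy × 5, 215 after 7.5 Gy × 1 and 295 in 0 Gy, so that the log2 fold over 0 Gy was -1.57 (-1.89 to -1.25) for 2 Gy × 5 and -0.45 (-0.73 to -0.17) for 7.5 Gy × 1. Between the regimens the log2 fold of 7.5 Gy × 1 over 2 Gy × 5 was 1.12 (0.81 to 1.42) for Thy1 and -1.002 (-1.56 to -0.46) for Cd2, so that these surface proteins of T cells lay on opposite sides. Of 11 stromal and endothelial genes named as markers of cells without CD45, 6 were detected, and their summed value at T2 was 3327 in 2 Gy × 5, 7482 in 7.5 Gy × 1 and 4895 in 0 Gy (range over the 13 samples 1469 to 7482). Most of that sum is Fn1, fibronectin, which macrophages make too, at 2885 in 2 Gy × 5, 6901 in 7.5 Gy × 1 and 4290.0 in 0 Gy. Pdgfrb, a receptor of fibroblasts and pericytes, was 64.6 in 2 Gy × 5, 106 in 7.5 Gy × 1 and 99.7 in 0 Gy, Cxcl12, a chemokine of stromal cells, 11.8 in 2 Gy × 5, 96.5 in 7.5 Gy × 1 and 70.6 in 0 Gy, and Cdh5, the cadherin of endothelium, 14.6 in 2 Gy × 5, 39.3 in 7.5 Gy × 1 and 35.3 in 0 Gy. The endothelial adhesion molecule Pecam1 was 114 in 2 Gy × 5, 93.1 in 7.5 Gy × 1 and 178 in 0 Gy and Vcam1 237 in 2 Gy × 5, 246 in 7.5 Gy × 1 and 221 in 0 Gy. Fn1, Pdgfrb, Cxcl12 and Cdh5 were thus lowest after 2 Gy × 5, as Thy1 was, but Pecam1 after 7.5 Gy × 1 and Vcam1 in 0 Gy. Over the 13 samples Pecam1 was lowest in 0 Gy at T21 (44.5), as Ptprc was (199.6), and highest in 7.5 Gy × 1 at T7 (382). Whether Pecam1 marks cells without CD45 in these samples was not tested. Ptprc was 346 in 2 Gy × 5, 279 in 7.5 Gy × 1 and 389.7 in 0 Gy. The part of these cells in the Thy1 values was not tested.

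At T7 the median of the members, like that of the panel, was higher in irradiated tumors with housekeeping scaling, but the members' median was not relative to leukocyte genes. The median log2 fold over 0 Gy was 0.57 after 2 Gy × 5 and 0.79 after 7.5 Gy × 1, against 0.42 and 0.48 over all genes, and scaling to the 5 leukocyte genes turned both member medians below 0 (-0.16 and -0.06). After 7.5 Gy × 1 all 10 members lay above 0 Gy and 2 of them, Cd3d and Cd3e, by 2-fold or more, where 22.2% of all genes did. After 2 Gy × 5, 9 of 10 lay above and 1, Fyn, by 2-fold, where 19.3% of all genes did. Neither count is above the share of the panel as a whole.

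Cd3d was the member that stood furthest above 0 Gy at T7 after 7.5 Gy × 1. Its raw counts were 39 after 2 Gy × 5, 111 after 7.5 Gy × 1 and 32 in 0 Gy, with log2 folds of 0.53 (-0.18 to 1.26) and 1.59 (1.01 to 2.20). Cd3e had 40 counts after 2 Gy × 5, 90 after 7.5 Gy × 1 and 31 in 0 Gy, and the log2 fold of 7.5 Gy × 1 over 0 Gy was 1.33 (0.73 to 1.97). Relative to the leukocyte genes both stayed above 0, at 0.73 for Cd3d and 0.47 for Cd3e, and total counts gave 0.91 for Cd3d and 0.66 for Cd3e. Both CD3 chains were also higher after 7.5 Gy × 1 than after 2 Gy × 5 in the same run, by 1.05 (0.51 to 1.62) for Cd3d and 0.71 (0.16 to 1.29) for Cd3e. Fyn gave 1.06 (0.72 to 1.41) after 2 Gy × 5 and 0.83 (0.50 to 1.17) after 7.5 Gy × 1, and for 2 Gy × 5 leukocyte scaling reduced it to 0.33. Lck gave 0.70 after 2 Gy × 5 and 0.79 after 7.5 Gy × 1. Cd247, Cd5 and Zap70 had folds between -0.25 and 0.34 whose intervals span 0.

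NK cells share several of these transcripts, and their 4 detected markers had summed values at T7 of 739 in 2 Gy × 5, 713 in 7.5 Gy × 1 and 289 in 0 Gy. The 7 detected CD8 and cytotoxic genes summed to 3041 in 2 Gy × 5, 2081 in 7.5 Gy × 1 and 1229 in 0 Gy, and Ptprc was 1873 in 2 Gy × 5, 1704 in 7.5 Gy × 1 and 1100.1 in 0 Gy. The neutrophil genes summed to 19517 in 2 Gy × 5, 49625 in 7.5 Gy × 1 and 17153 in 0 Gy and the monocyte and macrophage genes to 12270 in 2 Gy × 5, 14173 in 7.5 Gy × 1 and 7974 in 0 Gy. All were thus higher in both irradiated samples of T7. Their part in the members' values was not tested.

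At T14 the median of the members was higher after 7.5 Gy × 1 than in 0 Gy, with each of the 4 scalings. After 7.5 Gy × 1 all 10 members lay above 0 Gy of the same run, with a median log2 fold of 1.07 against 0.24 over all genes, and 7 of 10 by 2-fold or more in normalized values, where 11.8% of all genes did. The median was 0.73 to 0.83 under the 3 other scalings, but the count of 7 was 2 with the median of ratios or total counts (Cd6 and Thy1, with 6.27% and 6.99% of all genes) and 1 with the leukocyte genes (Cd6, with 5.3%). Thy1 had 299 after 7.5 Gy × 1 and 119.7 in 0 Gy, a log2 fold of 1.32 (0.93 to 1.73). Cd2 had 104 after 7.5 Gy × 1 and 46.5 in 0 Gy (1.17, 0.52 to 1.85), and Lck 123 after 7.5 Gy × 1 and 56.5 in 0 Gy (1.12, 0.53 to 1.74). Cd3d and Cd3e both gave 1.07, with intervals of 0.29 to 1.90 and 0.40 to 1.77. The other 2 of the 7 rest on a 0 Gy sample at background, Cd5 with 36 raw counts after 7.5 Gy × 1 and 15 in 0 Gy (at least 1.71-fold higher), and Cd6 with 31 after 7.5 Gy × 1 and 6 in 0 Gy (at least 1.48-fold higher). With such counts set to the background threshold 5 members and 7.71% of all genes were 2-fold higher.

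After 2 Gy × 5 the members at T14 did not stand apart from the panel. Their median log2 fold over 0 Gy was 0.35, close to the 0.35 of all genes, no member reached 2-fold while 15.9% of all genes did, and the sign of the median turned under the other scalings (-0.35 with total counts, -0.0017 with the median of ratios, -0.47 with the leukocyte genes). Lck (0.87, 0.33 to 1.44) and Cd3d (0.83, 0.13 to 1.60) had intervals above 0. Zap70 (-0.70) and Cd247 (-0.74) lay on the other side, with intervals that include 0. Set directly against 2 Gy × 5, the 7.5 Gy × 1 sample was higher in all 10 members (median 1.02, against 0.03 over all genes) and by 2-fold in 5, Cd6, Cd5, Cd3e, Zap70 and Thy1, where 12.5% of all genes were. These last comparisons cross 2 runs, and run and regimen cannot be told apart in them. At T14 the CD8 and cytotoxic genes summed to 1073 in 2 Gy × 5, 1954 in 7.5 Gy × 1 and 926 in 0 Gy, the 5 detected CD4 and regulatory T genes to 252 in 2 Gy × 5, 455 in 7.5 Gy × 1 and 196 in 0 Gy, the neutrophil genes to 52402 in 2 Gy × 5, 9094 in 7.5 Gy × 1 and 13372 in 0 Gy, and the monocyte and macrophage genes to 9285 in 2 Gy × 5, 7452 in 7.5 Gy × 1 and 6847 in 0 Gy. Their part was not tested.

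At T21, with housekeeping scaling, the order of the regimens was the other way round. After 2 Gy × 5, 9 of 10 members lay above 0 Gy (median 0.94, against 0.71 over all genes) and 4 by 2-fold in normalized values, Cd3e, Cd2, Fyn and Zap70, where 35.2% of all genes did, but scaling to the leukocyte genes gave a median of -0.82 and none of the 3 other scalings left a member 2-fold higher. After 7.5 Gy × 1, 5 of 10 lay above 0 Gy (median 0.08, against 0.21), and the sign turned under each of the other scalings, with -0.98 for the leukocyte genes. Scaling to the leukocyte genes left 51.3% of all genes 2-fold lower after 2 Gy × 5 and 39.5% after 7.5 Gy × 1. Among the members 2 and 5 were. In the 0 Gy sample Cd53, 1 of the 5 leukocyte genes, was at background, so scaling to these genes rests in part on a background count there. That sample also limits both comparisons because Cd2, Cd3e, Cd247, Zap70 and Cd6 were not above background in it. With such counts set to the background threshold 1 member, Fyn, and 29.9% of all genes were 2-fold higher after 2 Gy × 5. Cd2 had 30 raw counts after 2 Gy × 5, 30 after 7.5 Gy × 1 and 12 in 0 Gy, so that it was at least 1.96-fold higher after 2 Gy × 5 and at least 2.24-fold higher after 7.5 Gy × 1, where 14% of all genes passed 2-fold. Fyn, above background in all 3, gave 104 after 2 Gy × 5, 54.8 after 7.5 Gy × 1 and 41.8 in 0 Gy, a log2 fold of 1.31 (0.69 to 1.96) and 0.39 (-0.35 to 1.13). With the leukocyte genes the Fyn value after 2 Gy × 5 was -0.45. Ptprc was 810.2 in 2 Gy × 5, 427 in 7.5 Gy × 1 and 199.6 in 0 Gy. The neutrophil genes summed to 24975 in 2 Gy × 5, 14730 in 7.5 Gy × 1 and 5357 in 0 Gy and the monocyte and macrophage genes to 6614 in 2 Gy × 5, 4602 in 7.5 Gy × 1 and 2002 in 0 Gy, and their part was not tested.

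Between the regimens at T21, in 1 run, 9 of 10 members were lower after 7.5 Gy × 1 than after 2 Gy × 5 (median -0.86, against -0.45 over all genes). At least 2-fold lower were 3, Zap70, Cd247 and Lck, where 18.6% of all genes were, and with each of the 3 other scalings none was. Lck had 16 raw counts after 7.5 Gy × 1 and 37 after 2 Gy × 5 (-1.01, -1.96 to -0.13). Fyn gave -0.92 (-1.54 to -0.33). The exception was Cd2, at 0.20 (-0.58 to 0.97).

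**Figure D2:**
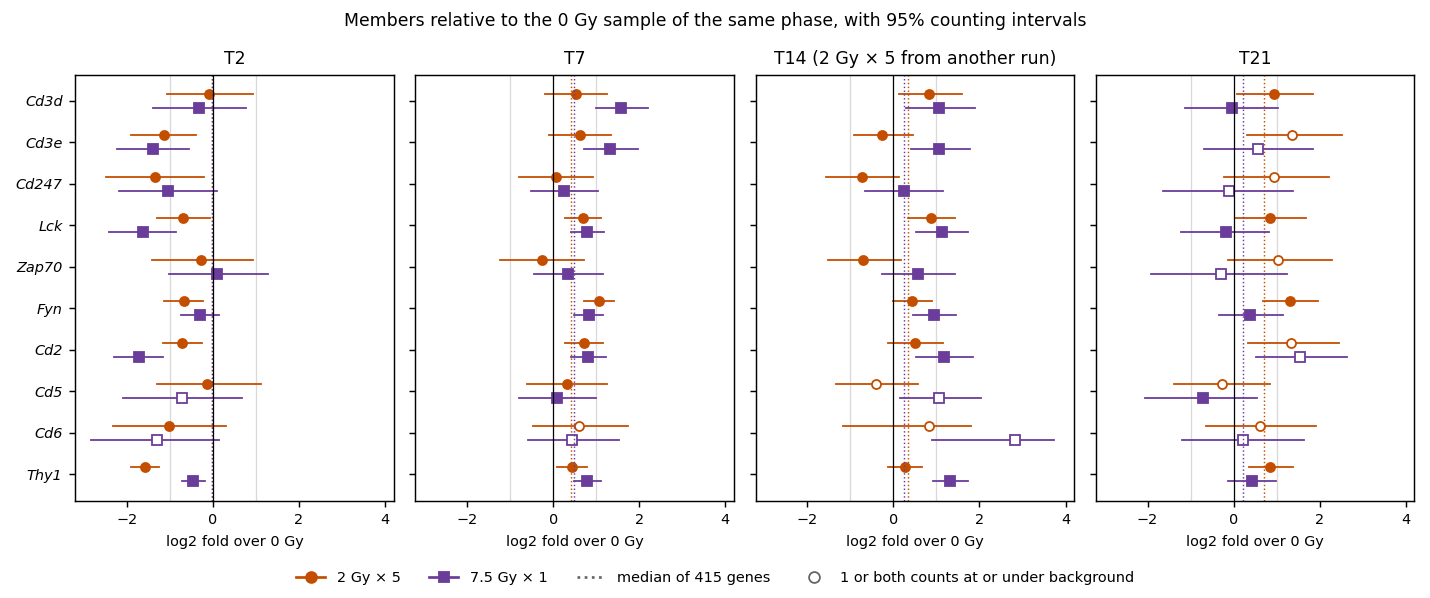
Log2 fold of each member over the 0 Gy sample of its phase, with 95% counting intervals; dotted lines are the medians of the 415 genes and hollow symbols have 1 or both counts at or under background. The medians of the members are -0.70 and -0.87 at T2 and 1.07 after 7.5 Gy × 1 at T14, whereas those above 0 at T7 and T21 and after 2 Gy × 5 at T14 turn below 0 when scaled to leukocyte genes.

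Transcripts of leukocytes in general differed between the same samples. The 5 pan-leukocyte genes summed to 6379 in 2 Gy × 5, 6731 in 7.5 Gy × 1 and 4032 in 0 Gy at T7 and to 3526 in 2 Gy × 5, 2506 in 7.5 Gy × 1 and 1834 in 0 Gy at T21, while at T2 they were 2274 in 2 Gy × 5, 1839 in 7.5 Gy × 1 and 2255 in 0 Gy. Relative to them, the members' medians over 0 Gy for T2, T7, T14 and T21 were -0.68, -0.16, -0.47 and -0.82 in the 2 Gy × 5 arm, and -0.29, -0.06, 0.73 and -0.98 in the 7.5 Gy × 1 arm. With this scaling the share of all genes 2-fold lower was 5.06%, 10.1%, 21.2% and 51.3% in the 2 Gy × 5 arm. In the 7.5 Gy × 1 arm it was 5.3%, 16.9%, 3.61% and 39.5%. The low medians at T21 are thus shared by much of the panel. Of the 8 comparisons, that of 7.5 Gy × 1 at T14 had a median above 0 in all 4 scalings, and both at T2 had one below 0.

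**Figure D3:**
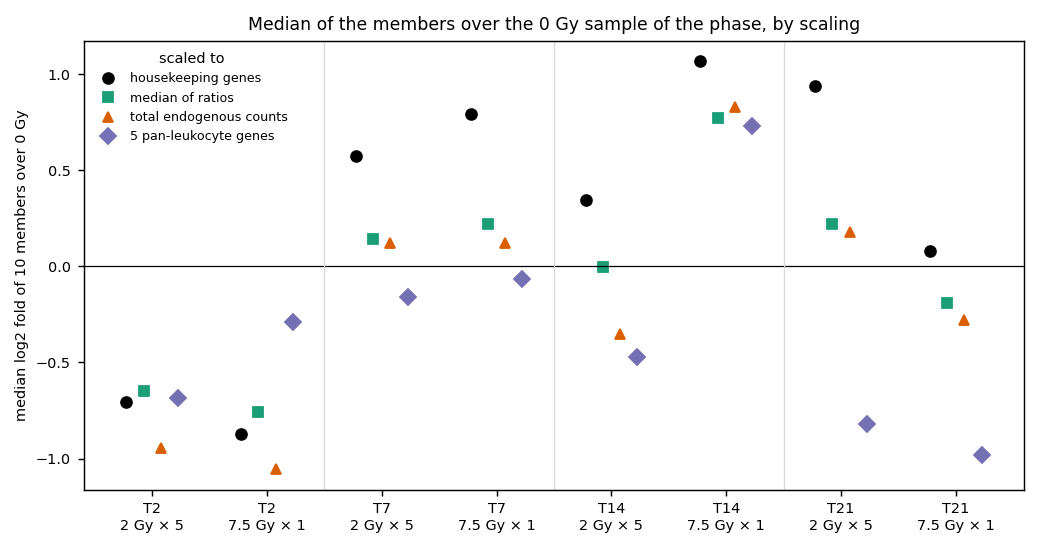
Median log2 fold of the 10 members over the 0 Gy sample of the phase, for each regimen and phase (horizontal axis), under 4 ways to scale the samples. All 4 lie below 0 at T2 and above 0 for 7.5 Gy × 1 at T14, and they fall on both sides of 0 in the other 5 comparisons.

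Against PreRT, the irradiated samples of T2, read in the same run, were lower in all 10 members. The median log2 fold was -1.47 after 2 Gy × 5 and -1.58 after 7.5 Gy × 1, against -0.16 and -0.14 over all genes, and in 0 Gy it was -0.50 against -0.16. Scaling to leukocyte genes gave -1.24 after 2 Gy × 5, -0.78 after 7.5 Gy × 1 and -0.29 in 0 Gy. At least 2-fold lower were 8 members after 2 Gy × 5 (where 12% of all genes were), 7 after 7.5 Gy × 1 (25.1%) and 1 in 0 Gy (5.78%), namely Cd3d, at -1.50 (-2.48 to -0.61). With the leukocyte genes the counts were 6 after 2 Gy × 5 (8.67% of all genes), 4 after 7.5 Gy × 1 (7.23%) and 1 in 0 Gy (4.1%), Cd3e (-0.87), Cd247 (-0.42) and Cd5 (-0.70) no longer reaching 2-fold after 7.5 Gy × 1. Cd2 had 101 raw counts after 2 Gy × 5, 41 after 7.5 Gy × 1, 75 in 0 Gy and 167 in PreRT, with log2 folds over PreRT of -1.65, -2.66 and -0.94. Thy1 in 0 Gy differed from PreRT by -0.03 (-0.32 to 0.25).

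Later samples were read in other runs than PreRT, and phase and run cannot be told apart in what follows. At T7 the median over PreRT was 0.03 after 2 Gy × 5, 0.56 after 7.5 Gy × 1 and -0.30 in 0 Gy, against 0.58, 0.73 and 0.14 over all genes, and scaling to leukocyte genes gave -1.58, -1.17 and -1.18. With the leukocyte genes 50.8%, 49.6% and 35.7% of all genes were 2-fold lower than PreRT in these samples, and 8, 6 and 5 members. In normalized values the members 2-fold higher were few. Lck (1.10 and 1.19) and, after 2 Gy × 5, Fyn (1.03) or, after 7.5 Gy × 1, Cd3d (1.01) were 2-fold higher than PreRT, 2 of 10 members after either regimen where 37.6% (2 Gy × 5) and 41.7% (7.5 Gy × 1) of all genes were, and each of these turned below 0 with the leukocyte genes. At T14 the medians were -0.49, 0.52 and -0.66 for 2 Gy × 5, 7.5 Gy × 1 and 0 Gy (-1.45, -0.09 and -0.93 with the leukocyte genes), with 3 members (8.19% of all genes), 1 (8.19%) and 3 (15.2%) 2-fold lower than PreRT in normalized values. Cd6 in 0 Gy is one of these and was at background, which gives no bound above 1, and with such counts set to the background threshold 2 members and 12.3% of all genes were 2-fold lower in 0 Gy. With the leukocyte genes the counts were 9 after 2 Gy × 5 (43.4% of all genes), 1 after 7.5 Gy × 1 (24.1%) and 5 in 0 Gy (24.3%). By T21 they were -0.52, -1.39 and -1.45 (-1.07, -1.23 and -0.23 with the leukocyte genes), and 2 members after 2 Gy × 5 (background 12.3%), 8 after 7.5 Gy × 1 (25.3%) and 8 in 0 Gy (38.1%) were 2-fold lower than PreRT in normalized values. In 0 Gy, Cd247 (at least 1.33-fold lower) and Cd6 (at least 1.45-fold) were at background, and with such counts set to the background threshold 6 members and 32% of all genes were 2-fold lower. With the leukocyte genes the counts were 7 after 2 Gy × 5 (31.3% of all genes), 7 after 7.5 Gy × 1 (21.2%) and 1 in 0 Gy (6.02%). The median of ratios gave 2 after 2 Gy × 5 (14% of all genes), 4 after 7.5 Gy × 1 (15.2%) and 4 in 0 Gy (14.7%). Cd2 lay below PreRT in every later sample, the smallest difference being -0.35 in 7.5 Gy × 1 at T7.

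To set the arms against each other with a test, the 4 phases were taken in place of replicates, and to set phases against each other the 3 arms were, in edgeR's quasi-likelihood fit to the raw counts with TMM scaling and Benjamini-Hochberg adjustment over 415 genes. No member passed an adjusted p of 0.05 between arms. For 2 Gy × 5 over 0 Gy, 0 of 415 genes passed (0%; 70 genes and 0 members at an unadjusted p under 0.05, and 40 genes and 0 members in DESeq2). For 7.5 Gy × 1 over 0 Gy, 5 genes passed (1.2%), none of them a member, with 15 genes and 0 members in DESeq2. For 7.5 Gy × 1 over 2 Gy × 5, 0 genes passed (0%; 26 genes and 1 member unadjusted, and 1 gene in DESeq2). The member values in these fits ranged from -0.62 ± 0.33 (SE) for Cd247 to 0.23 ± 0.32 (SE) for Cd3d in the 2 Gy × 5 arm, and from -0.33 ± 0.33 (SE) for Cd247 to 0.47 ± 0.32 (SE) for Cd3d in the 7.5 Gy × 1 arm.

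An average over phases mixes the low T2 values with the higher later ones, so the effect at T2 minus the mean effect at T7, T14 and T21 was also fitted, a term chosen after the values had been seen. Its median over the members was -0.93 for 2 Gy × 5, against 0.05 over all genes, and -0.89 for 7.5 Gy × 1, against 0.07. The largest was Cd2 after 7.5 Gy × 1, at -2.40 ± 0.55 (SE), with an adjusted p of 0.169 in edgeR. No gene of the panel passed for either regimen (0%), with 15 genes and 1 member at an unadjusted p under 0.05 for 2 Gy × 5, and 54 genes and 3 members for 7.5 Gy × 1.

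Across the arms, 2 of 10 members were called higher at T7 than at T2, a share not above that of the panel in the same fit. Lck rose by a log2 fold of 1.26 ± 0.37 (SE) with an adjusted p of 0.0105, and Cd3d by 1.06 ± 0.36 (SE) with 0.0221, while 27.2% of all genes were called higher and 26% lower in the same edgeR fit. With housekeeping in place of TMM scaling, which moves the median of all genes by 0.78, the split was 183 higher and 21 lower in place of 113 and 108, and 5 members were called (Lck, Cd3d, Cd247, Cd5 and Fyn). Without the 2 Gy × 5 arm the adjusted p was 0.0947 for Lck and 0.0618 for Cd3d, and without the 7.5 Gy × 1 arm 0.101 and 0.264 in edgeR. All T2 samples came from one run and all T7 samples from another, so that phase and run cannot be told apart. From T7 to T14 and from T14 to T21 no member was called, against 36 and 23 genes of the panel (4.82% higher and 3.86% lower, then 1.93% higher and 3.61% lower). Lck was -1.02 ± 0.38 (SE) at T21 over T14 with an adjusted p of 0.093 in edgeR, and DESeq2 called it.

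Of 46 other genes named for the receptor pathway, 28 were found on the panel by symbol and 22 passed the background filter. At T2, 3 of 22 were 2-fold lower in normalized values after 2 Gy × 5 (against 5.54% of all genes) and 8 of 22 after 7.5 Gy × 1 (17.1%), and none was 2-fold higher. Higher by 2-fold after 2 Gy × 5 were 8 of 22 at T7 (19.3% of all genes), 3 at T14 (15.9%, with 2 genes lower against 6.51%) and 8 at T21 (35.2%). After 7.5 Gy × 1 they were 7 at T7 (22.2%), 4 at T14 (11.8%) and 4 at T21 (14%, with 1 lower against 2.41%). In the 0 Gy samples 5 of the 22 were at background at T7, 7 at T14 and 6 at T21. In the 7.5 Gy × 1 sample of T2, 4 were. Some of the genes counted as 2-fold different were among these. The counts for the 22 were not repeated at the background threshold, so they may be too high. In the edgeR fit with TMM scaling 4 of 22 were called higher at T7 than at T2 and 5 lower, where 27.2% and 26% of all genes were, and 0 of 22 passed in any other comparison. With housekeeping factors 7 of 22 were called higher (Cd69, Cd7 and Prkcd besides the same 4), where 183 of all 415 genes were. None of the 5 lower ones passed with these factors. Of the 22, 1 was lower at T14 than at T7 (Ptpn22), where 47 of 415 genes were. Likewise 1 was lower at T21 than at T14 (Ptpn6), where 56 of 415 were. None of these counts of edgeR calls is above the share of the panel as a whole. That does not extend to the 2-fold counts given before. Given as log2 fold ± SE, the 4 called higher with TMM were Cd8a, the alpha chain of the CD8 coreceptor (1.98 ± 0.64, adjusted p = 0.0179), Ptpn6, a phosphatase that dampens the signal (1.47 ± 0.36, 0.00425), Ptprc (1.39 ± 0.28, 0.00197) and Sh2d1a, an adaptor of SLAM receptors (1.22 ± 0.38, 0.0154). Cd8a and Sh2d1a were at background in 7.5 Gy × 1 and 0 Gy at T2. Those called lower with TMM alone were Lef1 and Tcf7, transcription factors of naive and memory T cells, the phosphatases Ptpn22 and Ptpn2, and the transcription factor Nfatc3. Lef1 was -1.35 with TMM and -0.56 with housekeeping factors (adjusted p = 0.00726 and 0.16 in edgeR). Tcf7 was -1.15 with TMM and -0.35 with housekeeping factors (0.0121 and 0.381). The others were -1.15, -0.88 and -0.98 with TMM for Ptpn22, Ptpn2 and Nfatc3, against -0.40, -0.13 and -0.20 with housekeeping factors. Ptpn6 and Ptprc are also made by myeloid cells, whose summed markers were higher in all 3 arms at T7 than at T2, and their part was not tested.

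The coreceptors Cd4 and Cd8a and the checkpoint gene Ctla4 of this pathway list can be read beside the members. Cd8a was listed at 7.64, 33.2, 19.9 and 36.9 over T2, T7, T14 and T21 in the 2 Gy × 5 arm, 4.57, 62.7, 46.4 and 12.5 in the 7.5 Gy × 1 arm and 4.6, 11.5, 26.6 and 28.3 in the 0 Gy arm, with 11.9 in PreRT. Its 0 Gy samples of T2, T7 and T14 and the 7.5 Gy × 1 sample of T2 were not above background. Cd4, the coreceptor of helper T cells, was 13.9, 33.2, 27.3 and 51.9 over T2, T7, T14 and T21 in the 2 Gy × 5 arm, 10.3, 27.5, 65.2 and 40.7 in the 7.5 Gy × 1 arm and 24.6, 25.4, 49.9 and 32.4 in the 0 Gy arm, with 51.6 in PreRT. At T14 it was lower after 2 Gy × 5 than in 0 Gy and higher after 7.5 Gy × 1. Ctla4, an inhibitory receptor of activated and regulatory T cells, measured 68.8, 122, 107 and 87.5 over T2, T7, T14 and T21 in the 2 Gy × 5 arm, 22.2, 173, 199 and 64.1 in the 7.5 Gy × 1 arm and 59.8, 80.1, 69.8 and 29.7 in the 0 Gy arm, with 206 in PreRT. At T2, where all 10 members were lower after 2 Gy × 5 than in 0 Gy, Ctla4 was 68.8 after 2 Gy × 5 and 59.8 in 0 Gy. No counting interval was worked out for Ctla4, so whether it differed there is not known. The 7.5 Gy × 1 sample of T14 was the highest of its phase for all 3, as for all 10 members. Not every gene of the pathway list shared this order. At T14 Cd7 and Tcf7 were highest in 0 Gy. Prkcd, Ptprc, Ptpn6, Ptpn2 and Ptpn22 were highest there after 2 Gy × 5, a sample of another run.

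The members did not move as 1 block. Over the 13 samples the correlation of log2 values between pairs of members had a median of 0.75 and ran from 0.36 to 0.90, as a description of samples that share runs and scaling. Relative to the mean of the 10 in each sample, Cd3e varied least (SD 0.25 on the log2 scale) and Cd2 most (0.61), followed by Cd6 (0.55), Thy1 (0.48) and Lck (0.47). Thy1 stood 1.21 above its own average share in the 7.5 Gy × 1 sample of T2 and 0.79 above it in 0 Gy, while Cd2 stood at -1.19 in the 0 Gy sample of T21, where its count was at background, and 0.99 above its share in PreRT. Lck stood at -0.82 in the 7.5 Gy × 1 sample of T2, the lowest of its 13 values.

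**Figure D4:**
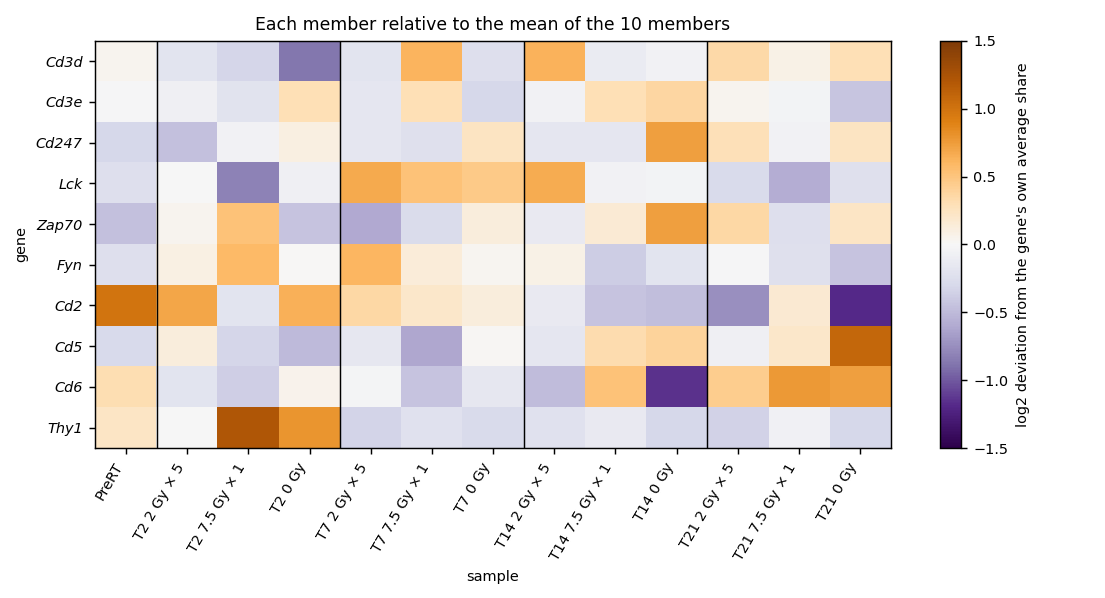
Heat map of each member (rows) in each sample (columns) on the log2 scale, relative to the mean of the 10 members in that sample and then to the gene's own average over the 13 samples. Thy1 is dark in the 7.5 Gy × 1 sample of T2 (1.21), and Cd2 reads -1.19 in the 0 Gy sample of T21 and 0.99 in PreRT.

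Among the 405 other genes, those most like the mean of the members over the 13 samples were Runx3, a transcription factor of cytotoxic lymphocytes (r = 0.93), Irf8 (0.92), Ikzf1 (0.91), Cd48 (0.91), the interleukin receptor chain Il2rb (0.91) and Stat5b (0.90). Thy1 was most like Notch1 and Cxcr6 (both 0.87) and Ikzf2 (0.83), and Fyn most like Cd86 (0.97), Cd48 and Ccr7 (both 0.95), a costimulatory ligand, a leukocyte surface protein and a chemokine receptor. These are Pearson correlations of log2 values over samples that share runs and scaling, given with no test.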

How the data were processed

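RNA of CD45-selected tumor cells was measured in 13 samples with the nCounter system and its mouse immunology panel (547 endogenous, 14 housekeeping, 8 negative and 6 positive probes). The raw counts per probe were used as deposited, and the software that wrote them is not given in the sources used here. The normalized values are a signal computed by the authors. The values show how: 1 factor per sample scaled the counts so that the housekeeping probes had a geometric mean of 789, and anything lower than the geometric mean of the negative controls took that mean instead, not multiplied by the factor. A different leukocyte share can thus shift all other genes relative to the housekeeping probes, and folds near background can come out too small or too large. A deposited column with the percent of samples above a detection threshold, made by the authors, was not used. The series value table repeats these values (0 of 7475 differ). Of the endogenous accessions 537 matched a current RefSeq symbol and 10 did not, and those 10 were counted in no list.

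Genes were kept when their mean raw count exceeded 13.1, the mean background threshold over samples, which left 415 and removed 132. Groups came from the sample labels. The members and gene lists were chosen with earlier results of these data known. Named beyond the members were pathway genes past the threshold (at most 6 per comparison), the genes most correlated with the members, and markers given beside a result. Cd4, Ctla4, Cd69, Cd7 and Prkcd were chosen after their values were seen. Log2 folds are of normalized values, and 95% intervals are Clopper-Pearson intervals of the ratio of raw counts, scaled by the factors, which cover counting error only. Where 1 count was at or under background the fold is given as a bound against the background threshold. Tests used edgeR 4.0.16 (quasi-likelihood, TMM, phase and arm as terms, 12 samples), with DESeq2 1.42.0 and limma 3.58.1 (log2 of normalized values, trended variance) as alternatives in R 4.3.3, and Python 3.11.15 for the rest. SE are the log2 fold divided by the square root of the F statistic. With phases or arms standing in for replicates, the p-values measure how far an effect repeats over phases or arms. On counts simulated for 7.5 Gy × 1 over 0 Gy with 415 genes, edgeR recovered 79% of genes changed 2-fold (6 false calls among 215 unchanged genes) and 100% of those changed 4-fold (10 false calls). In that simulation 200 genes were changed, and phases and runs had no effect of their own. It thus checks the code and does not give the power of the real comparison, where few genes were called. Alternatives were other scalings (median of ratios, total counts, pan-leukocyte genes), a pseudocount of 10, background subtraction, counts at background set to the threshold (chosen after seeing the data), no filter, housekeeping factors, the run as a term, and leaving out phases, arms or the 2 Gy × 5 sample of T14.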

Additional observations from a re-analysis of the deposited data

Results flagged for a closer look

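Lck, Cd2 and Thy1 were picked out because both irradiated samples lay below 0 Gy at T2 and both lay above 0 Gy at a later phase, each with a counting interval that excludes equality. For Lck the log2 folds over 0 Gy were -0.69 (T2), 0.70 (T7) and 0.87 (T14) after 2 Gy × 5, and -1.62, 0.79 and 1.12 after 7.5 Gy × 1. Cd2 gave -0.71 (T2), 0.72 (T7) and 1.34 (T21) after 2 Gy × 5, and -1.72, 0.82 and 1.54 after 7.5 Gy × 1, but the 0 Gy count of T21 was at background, so that the T21 values are no bounds and Cd2 was at least 1.96-fold higher after 2 Gy × 5 and at least 2.24-fold higher after 7.5 Gy × 1 there. Thy1 gave -1.57 (T2) and 0.44 (T7) after 2 Gy × 5, and -0.45 and 0.80 after 7.5 Gy × 1. The difference between T2 and the later phases was tested as an interaction term in edgeR, and none of the 3 genes passed (adjusted p of 0.946 for each with 2 Gy × 5, and 0.342, 0.169 and 0.450 for Lck, Cd2 and Thy1 with 7.5 Gy × 1). When samples were scaled to leukocyte genes the members' medians at T7 and, for both regimens, at T21 lay below 0. At T21 that scaling left 51.3% (2 Gy × 5) and 39.5% (7.5 Gy × 1) of all genes 2-fold lower as well.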

How the results depend on the processing

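The medians of the members over 0 Gy kept their sign under the other scalings, the pseudocount and background subtraction at T2 and, for 7.5 Gy × 1, at T14. Scaling to pan-leukocyte genes gave medians of -0.16 (2 Gy × 5) and -0.064 (7.5 Gy × 1) at T7, -0.47 (2 Gy × 5) at T14 and -0.82 (2 Gy × 5) at T21. For 7.5 Gy × 1 at T7 the median of ratios gave 0.22 and total counts 0.12. Over PreRT, pan-leukocyte scaling gave -1.58 (2 Gy × 5), -1.17 (7.5 Gy × 1) and -1.18 (0 Gy) at T7, -1.45 (2 Gy × 5) at T14 and -0.23 (0 Gy) at T21. At T7 it left 50.8% (2 Gy × 5), 49.6% (7.5 Gy × 1) and 35.7% (0 Gy) of all genes 2-fold lower than PreRT. Total counts gave -0.82 (2 Gy × 5) and -0.50 (7.5 Gy × 1) at T7, and background subtraction -2.45 for 0 Gy at T21. Folds that changed sign with pan-leukocyte scaling were, for 2 Gy × 5 over 0 Gy at T21, Cd3e (-0.40), Zap70 (-0.74), Fyn (-0.45) and Cd2 (-0.42). Over PreRT they were Lck (-0.50) and Fyn (-0.57) for 2 Gy × 5 and Cd3d (-0.72) and Lck (-0.54) for 7.5 Gy × 1 at T7, and Cd247 (0.18) and Cd6 (0.044) for 0 Gy at T21. Cd3d at T7 (7.5 Gy × 1 over PreRT) also changed sign with total counts (-0.064). The cause was not tested.

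In the fits, genes called for 2 Gy × 5 over 0 Gy numbered 0 in edgeR, 40 in DESeq2, 10 without the filter and 0 to 3 leaving out a phase. For 7.5 Gy × 1 over 0 Gy they numbered 5 in edgeR, 15 in DESeq2, 0 with housekeeping factors and 0 in limma. There were 2 with the run as a term and 0 to 3 leaving out a phase. The run term sets only the 2 Gy × 5 sample of T14 apart from its phase. Leaving that sample out, which also gave 2, is therefore the same check. DESeq2 called 1 gene for 7.5 Gy × 1 over 2 Gy × 5, and leaving out the 2 Gy × 5 sample of T14 gave 1 gene for the added T2 term of 7.5 Gy × 1. For T14 over T7, 36 genes became 63 in DESeq2 and 0 to 21 leaving out an arm. With the run as a term this comparison rests on the 2 Gy × 5 sample of T14 alone, so no count is given. For T21 over T14, 23 became 97 in DESeq2, 56 with housekeeping factors, 64 in limma and 0 to 21 leaving out an arm. They became 6 with the run as a term or, as the same check, without the 2 Gy × 5 sample of T14. Of the members, DESeq2 called 1 there, Lck. For T7 over T2, leaving out an arm gave 95 to 202 genes in place of 221, and the 2 members called became 5 with housekeeping factors or limma and 0 to 2 leaving out an arm (0 without 2 Gy × 5 or without 7.5 Gy × 1). The run term cannot adjust T7 over T2, because phase and run coincide there. No paired analysis was possible because each condition has 1 sample, and the numbers in the file headers are not said to mark a shared animal or batch; the comparisons of arms already held the phase, and those of phases the arm, as a term. Low counts limit Cd247, Zap70, Cd5 and Cd6, whose intervals include equality in most comparisons with 0 Gy.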
